A study of Danio rerio with 6 samples.

Results

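Wild type kidney marrow of adult zebrafish was described from the 3 RNA-seq libraries whose titles give the genotype tet2 wt/wt, out of 6 samples in the series. The study compared this genotype with a tet2 mutant in 3 biological replicates of each, and no value from the mutant libraries enters here. The fish were aged 3 to 5 months and received no stated treatment. Marrow was dispersed by pipetting and filtered into a suspension of cells. No sort or gate is named, so the total RNA is assumed here to come from the whole suspension. The labels give neither the sex of the fish nor the number of fish behind a library. The libraries are called wild type 1, 2 and 3 after the replicate number in their titles.

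The kidney marrow is the blood-forming organ of adult zebrafish and has the role that bone marrow has in mammals. Haematopoietic stem and progenitor cells lie there among the kidney tubules, and they give rise to erythrocytes, which keep their nucleus in fish, to neutrophils, macrophages, eosinophils and lymphocytes, and to thrombocytes, the nucleated counterpart of platelets. Tet2 oxidises methylated cytosine in DNA and is known in mammals as a regulator of blood stem cells.

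The 3 libraries held 47228518, 41285460 and 43220770 counts over 31484 genes. At this depth 28303 genes had at least 1 count in some library, 25103 had a count in all 3, and 3181 had none. Levels are given below as CPM, the standard unit of counts relative to library size, here with TMM-scaled library sizes, with the SD over the 3 libraries, and 16088 genes reached 1 CPM in every library. Since CPM rises with gene length, an order by CPM is an order by share of the counts, and levels per length are given as TPM, the count per gene length scaled to the same total in each library, computed from the deposited lengths. A floor of 3 counts corresponded to 0.0635 to 0.0727 CPM. The samples form 1 group, so values are descriptions and carry no test. In bulk RNA, fewer cells of a type and less RNA per cell cannot be told apart.

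The genes with the most counts belonged to the cytoskeleton, mitochondria, translation, haemoglobin and neutrophil granules. The gene actb2, a cytoplasmic actin on chr3:40384249-40387946 (build GRCz10, as are all positions here), was at 18133, 17910 and 20114 CPM in wild type 1, 2 and 3. The mitochondrial MT-CO1, a catalytic subunit of cytochrome c oxidase, was at 16914, 20345 and 18202 CPM. The elongation factor gene eef1a1l1, whose product brings tRNAs to the ribosome, was at 15446, 14235 and 13228 CPM. These 3 genes differed by no more than 1.2-fold between libraries and together held 5.16% of all counts (SD 0.330, n = 3).

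The 10 genes with the highest CPM held 10.1% of counts (SD 0.407, n = 3) and the first 100 held 28.9% (SD 0.233, n = 3). In the first 100 stood 46 ribosomal protein genes, 8 genes of the mitochondrial chromosome, 5 haemoglobin genes and 5 translation factor genes. The number of genes needed to reach 50% of the counts was 521 in wild type 1, 546 in wild type 2 and 600 in wild type 3. The range between the highest and the lowest library had a median of 1.21-fold over the first 100 genes. The neutrophil lysozyme lyz was the only gene of these 100 that differed by 2-fold or more.

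**Figure D1:**
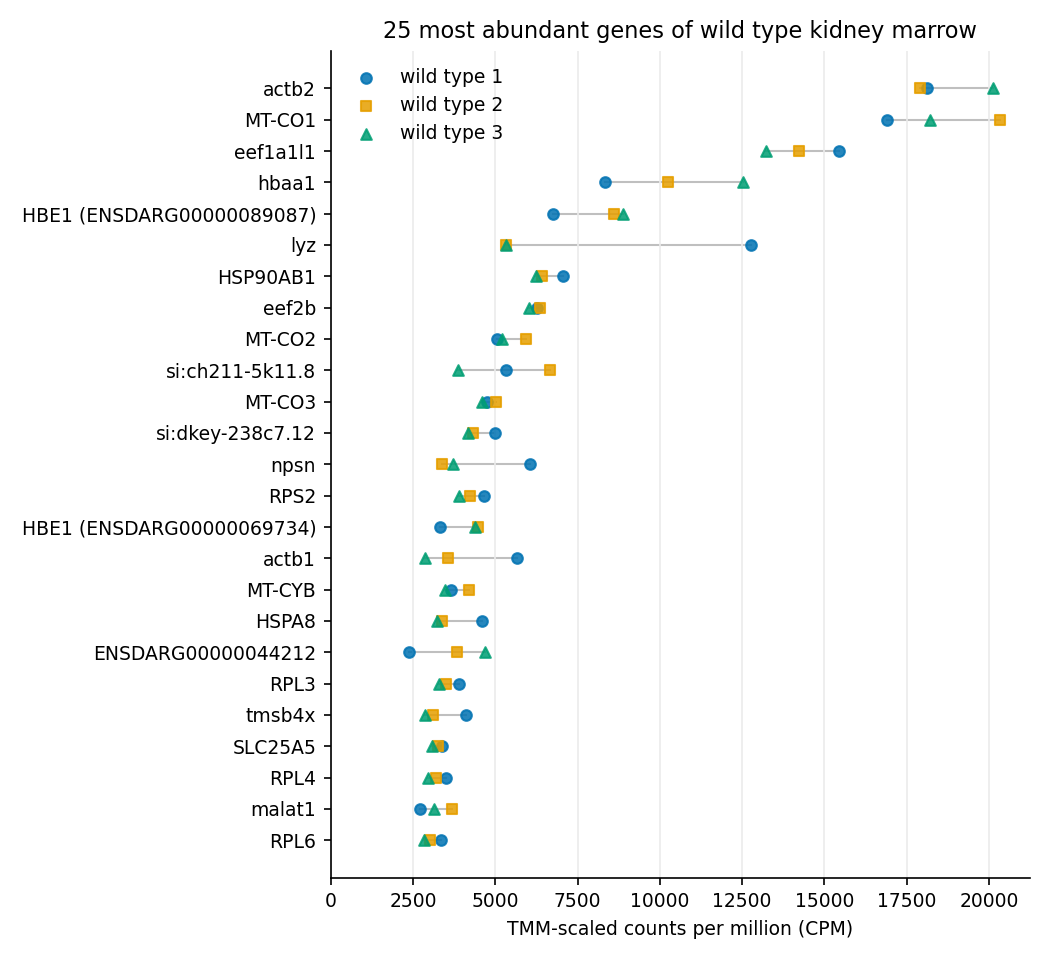
The 25 genes with the highest mean level, from highest (top) to lowest; the x axis is TMM-scaled CPM from 0, each point is 1 library (circle, wild type 1; square, wild type 2; triangle, wild type 3) and the grey line spans the 3. The points of lyz lie farthest apart in fold, at 12787 CPM in wild type 1 against 5313 and 5325 CPM in the others.

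Further genes among the first 25 were the chaperones HSP90AB1 (6585 CPM, SD 430.3, n = 3) and HSPA8 (3729 CPM, SD 746.3, n = 3) and the elongation factor eef2b, which moves the ribosome along the mRNA (6217 CPM, SD 183.1, n = 3). The actin-binding peptide gene tmsb4x stood at 3359 CPM (SD 661.8, n = 3), and SLC25A5, which exchanges ADP and ATP across the inner mitochondrial membrane, at 3235 CPM (SD 140.7, n = 3). The long non-coding RNA malat1, retained in the nucleus in mammals, was at 2715, 3694 and 3127 CPM. The gene si:dkey-238c7.12 on chr18:7607072-7609022, which RefSeq lists as a long non-coding RNA, was at 5003, 4339 and 4183 CPM. ENSDARG00000044212, on chr19:37955768-37979726 and without a name in the tables used, was at 2364, 3846 and 4676 CPM over an exon length of 21205 bases. It was lowest in wild type 1, whereas the second actin gene, actb1, was highest there, at 5650, 3563 and 2861 CPM.

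Per length the order changed: 16 of the 25 genes leading by CPM were also among the 25 leading by TPM. The gene lyz led with 22181 TPM (SD 10725, n = 3), followed by MT-CO1 with 20923 TPM (SD 2815, n = 3) and hbaa1 with 20296 TPM (SD 5384, n = 3). The spreads of these 3 genes exceed the gaps between them, so their order is not resolved. The gene eef1a1l1, behind only actb2 and MT-CO1 by CPM, stood at 7531 TPM (SD 100.4, n = 3).

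Haemoglobin genes held 2.5%, 3.37% and 3.42% of all counts in wild type 1, 2 and 3, and their mean of 3.1% (SD 0.519, n = 3) was the largest of the 10 blood cell lists. In wild type 1 the neutrophil list held more, at 2.56%. Of 23 listed names 12 were matched, which with the globin genes placed by position gave 14 genes, 8 of them at a mean of 1 CPM or more. The adult alpha globin hbaa1 on chr3:54845443-54851382 was at 8337, 10237 and 12535 CPM. A globin gene that the name table calls HBE1, on chr3:54843971-54849708, was at 6753, 8622 and 8887 CPM, and a second HBE1, on chr3:54836628-54837449, was at 3323, 4467 and 4397 CPM. HBE1 is a human name and both copies lie beside hbaa1 and hbaa2, so the name alone does not mark them as embryonic. The neighbouring si:ch211-5k11.8, which RefSeq also calls hbaa1.2, was at 5328, 6650 and 3877 CPM, and hbaa2 was at 1811, 2577 and 2775 CPM. Of the embryonic globin genes, hbae5 had a mean of 2.86 CPM, hbae1.3 of 0.336 CPM and hbae4, on chromosome 12, of 29.1 CPM. Several of the chromosome 3 globin genes overlap each other and resemble each other in sequence, so the division of reads among them is uncertain.

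Other erythroid genes were measured in parallel with the globins. Their share was 0.632%, 0.868% and 0.833% of counts, again lowest in wild type 1. SLC4A1, the anion exchanger of the red cell membrane, was at 1424, 1857 and 1732 CPM. The haem synthesis enzyme alas2, which catalyses the first step in erythroid cells, was at 774.0, 1023 and 942.3 CPM, and the carbonic anhydrase cahz was at 695.0, 1024 and 847.6 CPM. The Rhesus-associated membrane protein gene RHAG was at 517.7, 599.4 and 499.7 CPM, and the spectrin gene SPTB was at 371.7, 502.8 and 422.7 CPM. Of the 27 members at 1 CPM or more, 17 were lowest in wild type 1 and 5 were highest there. Of all 17442 genes with a mean of 1 CPM or more, 35.9% were lowest and 40.7% highest in wild type 1, and 27.3% were highest in wild type 2. Those 5 were UROD, CPOX, ALAD, PPOX and FECH, all enzymes of haem synthesis that act after alas2. FECH, which inserts the iron, was at 33.8, 27.2 and 20.2 CPM; the 5 genes were singled out after their values were seen.

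Neutrophil genes showed the widest difference of the 10 blood cell lists, 1.7-fold. They held 2.56%, 1.51% and 1.6% of counts in wild type 1, 2 and 3, and 13 of 21 genes were highest in wild type 1, beside 40.7% of all genes. With scaling by library totals alone 10 were highest there, beside 30.1%. The secreted enzyme lyz, which cleaves bacterial walls, was at 12787, 5313 and 5325 CPM on chr24:23890689-23893626 and made up 41% of the list. The zinc protease npsn was at 6057, 3373 and 3705 CPM. The myeloperoxidase gene mpx, which the name table calls EPX and which was placed by its neighbours, was at 2302, 1558 and 1437 CPM. The granule proteoglycan gene srgn was at 2055, 1273 and 1267 CPM. The oxidase subunit NCF1 was at 524.7, 541.2 and 582.4 CPM and its partner cybb at 435.0, 415.3 and 418.4 CPM. The receptor gene CSF3R, which receives the cytokine that drives neutrophil production, was at 317.6, 274.8 and 326.9 CPM. The libraries thus overlapped closely for cybb (1.05-fold range) and lay apart for lyz (2.41-fold range).

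Macrophage genes held 0.858%, 0.934% and 0.939% of counts. The leading genes were cd74a and cd74b, the chaperones of MHC class II molecules, at means of 1784 CPM (SD 122.4, n = 3) and 981.8 CPM (SD 38.5, n = 3). The scavenger receptor marco was at 771.1, 946.3 and 1435 CPM, highest in wild type 3, and the granulin gene grna.1 was at 1315, 886.1 and 876.1 CPM, highest in wild type 1. The protease LGMN was at 463.3, 549.7 and 541.6 CPM, and the receptor csf1rb, which takes up macrophage growth factor signals, was at 315.7, 266.6 and 344.0 CPM. The cathepsins ctss2.1 and ctss2.2 lay at 266.6 and 258.5 CPM on average. Cd74 genes are also active in B cells, so this list is not particular to macrophages.

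Lymphocyte and cytotoxic cell lists held small shares. B cell genes held 0.131%, 0.117% and 0.136% of counts, led by XBP1 (510.5, 333.2 and 421.3 CPM), a factor of secretory cells at large, and by ighm (301.2, 270.2 and 332.6 CPM), the immunoglobulin heavy chain of IgM. The ighm locus overlaps many other annotated genes on its strand, so its counts are uncertain. RAG1, which cuts antigen receptor genes in developing lymphocytes, was at 21.3, 27.1 and 24.9 CPM, and the kinase BTK of B cell receptor signalling was at 110.8, 97.5 and 94.3 CPM. T cell genes held 0.0255%, 0.0356% and 0.0377% of counts. Of the 23 genes 19 were lowest in wild type 1, beside 35.9% of all genes with a mean of 1 CPM or more. With scaling by library totals alone 21 were lowest there, beside 47.6%. The kinase ZAP70 was at 31.1, 46.6 and 43.7 CPM and lck at 18.4, 25.1 and 26.2 CPM. Natural killer and cytotoxic genes held 0.0216%, 0.0271% and 0.0311%, with il2rb at 63.7, 101.4 and 97.0 CPM and the lysin nkl.2 at 34.5, 25 and 43.7 CPM.

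Thrombocyte genes held 0.117%, 0.109% and 0.116% of counts, led by PLEK (236.4, 202.2 and 184.6 CPM), a platelet kinase substrate, and f13a1b (181.4, 103.2 and 118.0 CPM), a clotting factor subunit. The platelet receptor gene GP1BB was at 39.3, 42.2 and 45.9 CPM. In the eosinophil and mast cell list, with 0.109%, 0.0757% and 0.0953% of counts, the carboxypeptidase cpa5 accounted for most. The name table calls it CPA1, its neighbours place it as cpa5, and it was at 729.8, 374.0 and 484.9 CPM. The eosinophil peroxidase gene epx was at 0.872, 1.73 and 2.23 CPM.

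Progenitor genes held 0.368%, 0.336% and 0.324% of counts. TXNIP, which many other cells express, made up 49.3% of that sum. CEBPA, a factor that directs progenitors to the myeloid line, was at 789.9, 375.9 and 358.1 CPM, and MYB, which definitive blood stem cells need, was at 504.1, 436.0 and 395.4 CPM. SPI1, the myeloid regulator also called Pu.1, was at 387.2, 412.5 and 409.5 CPM, and FLI1 was at 154.4, 131.5 and 119.5 CPM. Of these 4 regulators CEBPA stood apart in wild type 1, whereas the others stayed within 1.29-fold.

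**Figure D2:**
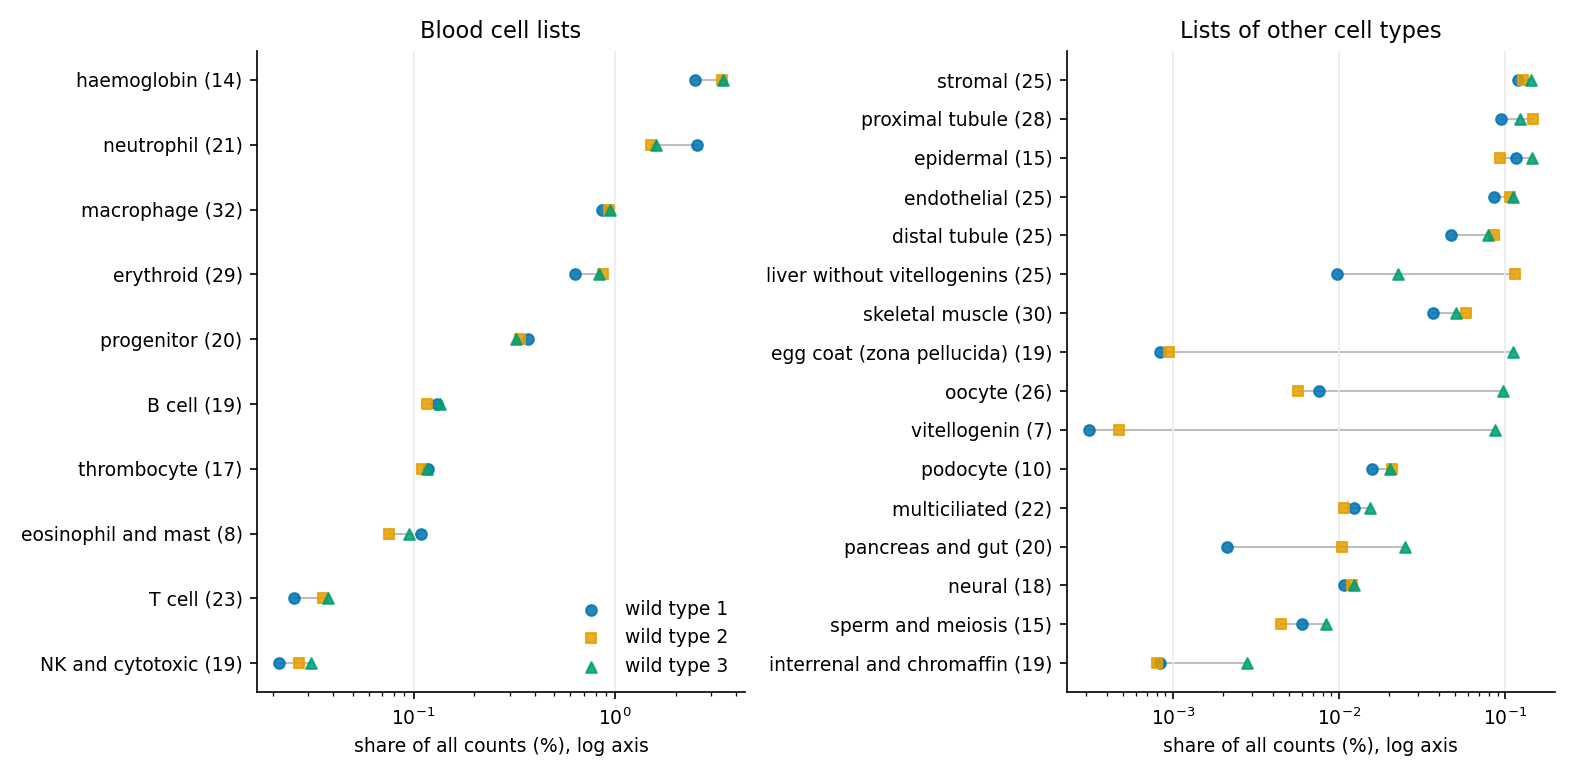
Share of all counts (%, log axis) taken by each marker list, with the number of matched genes in brackets; left, the 10 blood cell lists, right, the lists of other cell types with the liver list split in 2. Each point is 1 library and the grey line spans the 3. Haemoglobin and neutrophil lists lead on the left, and on the right the egg coat, vitellogenin, oocyte, liver and pancreas lists span the widest ranges.

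All 202 genes of the blood lists together took 7.32%, 7.38% and 7.53% of the counts. The 328 genes of the lists of other cell types took 0.567%, 0.798% and 1.05%. Exact binomial 95% intervals of these shares cover counting error only and are narrow, for example 0.0212% to 0.0220% for natural killer genes in wild type 1. The lists differ in length and in how specific their genes are, so shares do not give cell numbers.

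Genes of the kidney itself were present in every library. Proximal tubule genes, for uptake of filtered solutes, held 0.0947%, 0.146% and 0.124% of counts. Of 27 measured genes 22 were highest in wild type 2, beside 27.3% of all genes with a mean of 1 CPM or more. The endocytic receptor gene LRP2 was at 74.2, 115.7 and 67.2 CPM, its partner CUBN was at 61.8, 100.5 and 66.5 CPM, and the water channel gene AQP1 was at 105.5, 123.4 and 143.1 CPM. Distal tubule genes held 0.0472%, 0.0854% and 0.0791%. Of 14 measured genes 13 were lowest in wild type 1, beside 35.9% of all genes, or 47.6% with library totals alone. The cadherin CDH17 was at 191.5, 278.6 and 221.8 CPM, and the salt transporters SLC12A3 and SLC12A1 were at 32.2, 58.5 and 54.0 CPM and at 23.0, 35 and 43.2 CPM. Of the podocyte genes, NPHS1, which encodes a slit diaphragm protein, was at 1.18, 0.601 and 1.08 CPM.

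Vessel, stroma and muscle genes were also found. Endothelial genes held 0.0858%, 0.106% and 0.111% of counts, with the vascular growth factor receptor kdrl at 53.6, 106.3 and 128.8 CPM and the scavenger receptor stab1 at 127.8, 159.1 and 184.1 CPM. Stromal genes held 0.120%, 0.127% and 0.142%, of which CXCL12, the chemokine that holds blood progenitors in their niche, was at 554.4, 602.0 and 651.9 CPM. Skeletal muscle genes held 0.0367%, 0.0579% and 0.0506%, led by myoglobin (mb) at 53.6, 165.6 and 172.6 CPM. Myoglobin made up 27.1% of the list, and most other members did not share its order. Of 17 measured muscle genes 11 were lowest in wild type 3, beside 37.6% of all genes. Only 5 were lowest in wild type 1, beside 35.9%. Neural genes held 0.0107% to 0.0123%, and 71.5% of that came from mbpb. Sperm and meiosis genes held 0.00446% to 0.00835% and interrenal and chromaffin genes held 0.000802% to 0.00279%.

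Genes of ribosomal proteins, protein degradation and energy supply tended to differ together between libraries. The median fold of wild type 1 over wild type 3 was 1.21 for ribosomal protein genes. It was 1.66 for proteasome genes and 1.38 for nuclear respiratory chain genes. The 85 cytosolic ribosomal protein genes held 11.9%, 11.4% and 10.9% of counts, with RPS2 at 4667, 4220 and 3884 CPM. Of these, 82 were highest in wild type 1 and 81 were lowest in wild type 3, beside 40.7% and 37.6% of all 17442 genes with a mean of 1 CPM or more. All 55 measured genes of proteasome subunits and their regulators and assembly factors, for protein degradation, were highest in wild type 1, as with PSMA1 at 202.5, 164.2 and 136.8 CPM, and 53 were highest there when libraries were scaled by their totals alone. Nuclear genes of the respiratory chain, the ATP synthase and their assembly factors were highest in wild type 1 in 96 of 103 cases, with ATP5F1B at 1304, 1176 and 1001 CPM. Genes of the mitochondrial chromosome went another way, at 3.96%, 4.81% and 4.27% of counts. Of 26 such genes 22 were highest in wild type 2, beside 27.3% of all genes. None of these 4 classes held a gene with a range of 4-fold or more, beside 3.53% of all genes with a mean of 1 CPM or more. That share falls with level, to 0.562% of genes between 100 and 1000 CPM. The lack of such genes is therefore not read as a trait of these classes.

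The tet genes themselves were steady. TET2, on chr1:25662646-25693594, was at 47.3, 52.9 and 48.0 CPM, TET1 at 17.2, 21.1 and 16.9 CPM and tet3 at 53.3, 58.8 and 59.6 CPM. Per length, tet3 stood highest of the 3, at 28.5 TPM (SD 3.49, n = 3), followed by TET2 at 9.83 TPM (SD 0.971, n = 3) and TET1 at 5.18 TPM (SD 0.747, n = 3), and the gaps exceed these spreads.

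Variation between the libraries was measured as the range log2((highest CPM + 0.5)/(lowest CPM + 0.5)), and a gene was counted as variable at a range of 2 or more, which is 4-fold. Of the 17442 genes with a mean of 1 CPM or more, 616 were variable, the 3.53% given above. A low gene can pass the minimum of 1 CPM through a single library: 525 of the 17442 genes were under 1 CPM in the other two, and 292 of the remaining 16917 genes were variable. At 8-fold or more there were 334 genes and at 32-fold or more 118. The share fell with level, from 6.85% of genes between 1 and 5 CPM to 0.562% of the 1600 genes between 100 and 1000 CPM and 0 of 123 genes above. The common biological coefficient of variation was 0.325. Across these genes, the Pearson correlation of log2(CPM + 0.5) was 0.970 between wild type 1 and 2, 0.929 between 1 and 3 and 0.934 between 2 and 3. These are correlations across genes, which are not independent replicates.

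As counted, with the minimum of 1 CPM set on the mean, wild type 3 accounted for most of the 616 variable genes. In 371 of the 616 it lay farthest from the middle value and above it, in 110 wild type 2 was high and in 43 wild type 1 was high. A low value set the range in 42 genes for wild type 1, 31 for wild type 2 and 19 for wild type 3. Without wild type 3 the number of variable genes was 182, against 472 without wild type 1 and 458 without wild type 2. Of the 371 genes high in wild type 3, 264 were under 1 CPM in both other libraries. Those 264 passed the minimum only through wild type 3, so the filter itself favoured a wide range for them. The 371 took 1.28% of the counts of wild type 3 against 0.0370% and 0.0398%. They were picked for their high value in wild type 3, so the direction of this contrast was fixed by that choice.

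**Figure D3:**
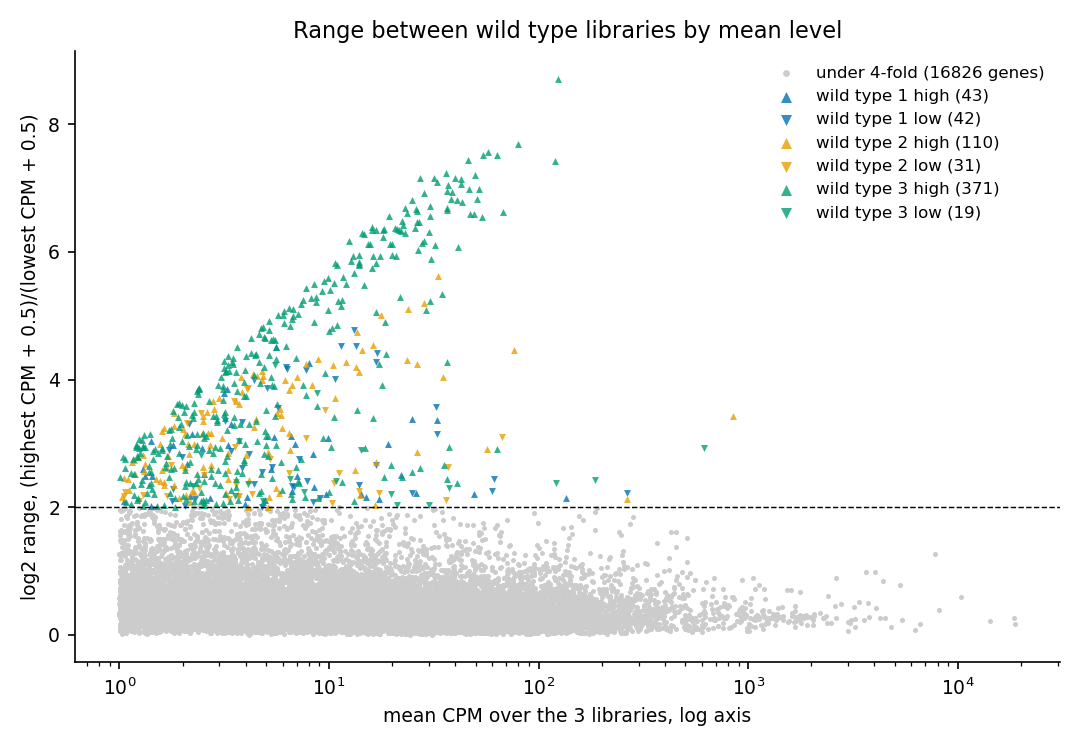
Range between the 3 wild type libraries (y axis, log2) against the mean level (x axis, CPM, log axis) for 17442 genes, 1 point each. Grey points are under the 4-fold line (dashed); coloured points are variable, with the colour giving the library farthest from the middle value and the triangle pointing up where it is high and down where it is low. The points for wild type 3 high, 371 genes, form the upper edge of the cloud.

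The genes high in wild type 3 were led by those of the egg and its yolk. Zona pellucida proteins form the coat around the egg, and 17 of 19 such genes reached a mean of 1 CPM. Of these, 14 were under 1 CPM in both other libraries and passed the minimum only through wild type 3, so that the filter itself favoured a wide range and no count of variable members is read. On chr20:34088922-34090819, zp3a.1 was at 0.581, 0.409 and 170.8 CPM, and zp3a.2 beside it was at 0.693, 0.601 and 138.9 CPM. On chromosome 9, zp2l1 was at 0.559, 0.385 and 109.0 CPM. The whole list held 0.000841%, 0.000947% and 0.111% of counts. For those 14 the filter made wild type 3 the highest library, and wild type 3 was also highest for the remaining 3. Wild type 1 and 2 were near the same low level.

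Further oocyte genes followed the same libraries. Of 26 listed genes found, 22 reached a mean of 1 CPM, 11 of them through a single library, and here too no count of variable members is read. The germ plasm organiser buc, on chr2:28199466-28203585, was at 0.827, 0.938 and 150.7 CPM, and the oocyte linker histone h1m was at 0.604, 0.553 and 108.0 CPM. ZAR1, which regulates maternal mRNAs, was at 1.12, 1.3 and 63.2 CPM, and the oocyte growth factor bmp15 was at 0.134, 0.433 and 12.7 CPM. CYP19A1, the aromatase that makes oestrogen, was instead high in wild type 1, at 9.17, 0.168 and 0.486 CPM. The germ granule gene tdrd7a was at 17.1, 9.76 and 33.7 CPM.

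Single members of broad gene families were also high in wild type 3. Among the histone genes, h2af1al was at 1.99, 2.07 and 100.2 CPM. Of the tubulin genes tuba4l was at 1.94, 2.45 and 83.0 CPM, and of the translation factor genes eef1a1l3 was at 0.559, 0.601 and 15.2 CPM and EIF4E1B at 0.559, 0.265 and 12.3 CPM. The cyclin CCNB2, which drives entry into division, was at 9.12, 9.12 and 56.1 CPM. It was the only variable gene of 34 cell cycle genes, which is 2.94% and near the 3.53% of all genes. The level of zgc:173556, on chromosome 17 and with no described role in the tables used, was 1.61, 1.59 and 357.0 CPM. These members were singled out after their values were seen.

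Vitellogenins, yolk precursors that the liver of egg-laying females secretes, also stood apart in wild type 3. The gene vtg1 on chr22:24703341-24710564 was at 0.425, 0.385 and 371.5 CPM, a log2 range of 8.72 and the widest of the 17442 genes on the scale with the pseudocount. The gene vtg2 on chr22:24842066-24853200 was at 0.447, 0.168 and 94.6 CPM and vtg3 on chromosome 11 was at 0.313, 0.144 and 19.5 CPM. The 7 vitellogenin genes, 6 of which were under 1 CPM in both other libraries, together held 0.000313%, 0.000475% and 0.0872% of counts. The chromosome 22 copies overlap and resemble each other, vtg2 excepted from the overlap, so reads may be divided wrongly among vtg1, vtg4, vtg5, vtg6 and vtg7. The labels give no sex, and the part of oocytes or of yolk protein in these values was not tested.

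The remaining liver genes had their high values in wild type 2. Without the vitellogenins, the list held 0.00978%, 0.115% and 0.0226% of counts. Of the 23 genes with a mean of 1 CPM or more, 22 were variable, beside 3.53% of all genes. All 23 were highest in wild type 2, beside 27.3% of all genes highest in that library. Only 2 of the 23 passed the minimum through wild type 2 alone, and of the other 21 genes 20 were variable. Haemopexin (hpxa), the plasma carrier of haem on chr9:33029368-33046387, was at 1.34, 90.7 and 7.04 CPM. The fibrinogen chains fga and FGB, the substance of blood clots, were at 1.59, 76.3 and 6.97 CPM and at 1.36, 63.8 and 6.09 CPM. The apolipoprotein gene apoa1b was at 8.4, 196.9 and 22.6 CPM, and the transferrin gene tfa, which carries iron, was at 5.36, 69.5 and 22.6 CPM. The protease inhibitor serpina1l was at 1.7, 28.4 and 1.99 CPM. The single gene of the list under 4-fold was RBP4, the retinol carrier, at 29.8, 37.9 and 22.5 CPM. Wild type 1 was lowest for 22 of the 23 genes, beside 35.9% of all genes, with wild type 3 between for those 22. The liver list therefore divided: vitellogenins were high in wild type 3 and the other genes in wild type 2, and the summed share was lowest in wild type 1. Outside the list but 4-fold or more above both other libraries were complement c9 at 1.39, 43.5 and 3.77 CPM and the enzymes hpda and TDO2, which break down amino acids, at 1.45, 35.5 and 3.27 CPM and at 0.872, 15.5 and 1.24 CPM.

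**Figure D4:**
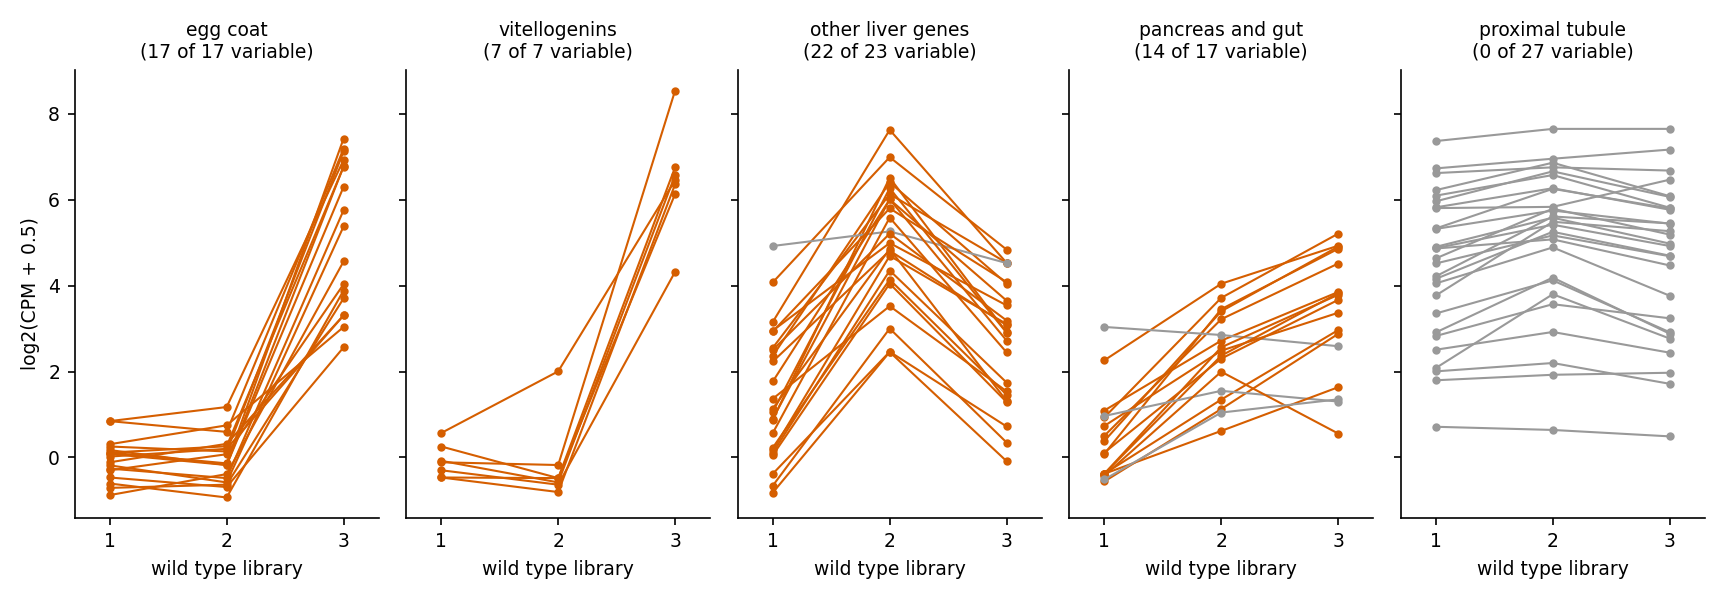
Levels as log2(CPM + 0.5) of the members with a mean of 1 CPM or more in 5 lists (panels) in wild type 1, 2 and 3; each line joins the 3 values of 1 gene, and the libraries have no order. Orange lines are genes with a range of 4-fold or more and grey lines the others. Egg coat genes and vitellogenins peak in wild type 3, other liver genes in wild type 2, digestive genes are lowest in wild type 1, and the 27 proximal tubule genes stay within 4-fold.

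Non-coding RNAs of the ribosome and of small RNA particles were also high in wild type 2. The signal recognition particle RNA gene rn7sl1, on chr3:30117897-30118194, was at 2.44, 32.4 and 1.19 CPM. The gene zgc:158463, listed by RefSeq as ribosomal RNA and located at chr5:825789-827000, was at 275.8, 2072 and 190.9 CPM. The snRNA rn7sk, which restrains transcription elongation, was at 0.805, 6.16 and 0.574 CPM. The RNase P RNA rpph1 was at 0.268, 2.45 and 0.618 CPM, just under the 4-fold line on the scale with the pseudocount. All 4 were thus highest in wild type 2 by at least 3.97-fold over each other library. All but rn7sl1 were looked up after the values were seen, and how ribosomal RNA was depleted or mRNA selected is not given in the sources used here.

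Digestive enzyme genes of the exocrine pancreas were lowest in wild type 1. In the pancreas and gut list 14 of 17 measured genes were variable, 16 were lowest in wild type 1 and 14 were highest in wild type 3, and the list held 0.00211%, 0.0104% and 0.0249% of counts. The trypsin gene prss59.1 on chr16:26139127-26140409 was at 0.559, 10.4 and 28.5 CPM, and its relative prss1 was at 1.41, 12.6 and 36.5 CPM. The chymotrypsin ctrb.1 was at 0.805, 10.1 and 29.5 CPM, the elastase CELA1 at 1.23, 13.1 and 36.2 CPM and the amylase amy2a at 0.268, 5.41 and 13.3 CPM. The hormone gene ins was at 0.0671, 0.0962 and 0.773 CPM, near the floor of 3 counts in wild type 1 and 2. Beyond the digestive enzymes, wild type 1 was low for PYGL, the glycogen phosphorylase of liver (0.358, 8.08 and 14.8 CPM), and for the kinase wnk4b, a regulator of salt transport (5.01, 45.6 and 48.0 CPM). Liver and pancreas markers lie outside the kidney marrow, and their part in the differences between these libraries was not tested.

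By the count below, with its minimum set on the mean, few genes were high in wild type 1. A gene can pass that minimum through the library where it is high, so the filter itself favours such counts. By the rule, 6 genes with a descriptive symbol and a mean of 5 CPM or more lay 4-fold or more above both other libraries there, against 30 in wild type 2 and 96 in wild type 3. They were the chemokines ccl34b.8 (61.8, 7.58 and 5.50 CPM) and ccl34a.4 (19.8, 3.15 and 2.34 CPM), the collagen col28a2b (14.7, 0.168 and 1.81 CPM), mfap4.4 (12.5, 1.66 and 1.63 CPM), the interferon-induced ifi44a7 (15.9, 1.39 and 2.49 CPM) and CYP26B1 (15.8, 3.29 and 1.55 CPM), which breaks down retinoic acid. The chemokine and mfap4 genes belong to families of near copies, so their reads are uncertain. In the interferon response list no gene reached 4-fold, but 27 of 31 were highest in wild type 1, beside 40.7% of all genes, with gbp1 at 535.5, 365.7 and 197.4 CPM. With scaling by library totals alone 26 of 31 were highest there, beside 30.1%.

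By the same rule 13 genes were low in wild type 1, 4 in wild type 2 and 3 in wild type 3. Wild type 2 was low for krt5, a keratin of basal epithelium (98.8, 11 and 90.3 CPM), and OSCP1 (52.7, 8.08 and 50.2 CPM). It was also low for genes that the name table calls F13A1 (19.4, 3.66 and 18.7 CPM) and ACTA1 (9.17, 0.938 and 5.50 CPM). Neither F13A1 nor ACTA1 was a matched member of the thrombocyte or skeletal muscle list, so what these names denote is less certain. Wild type 3 was low for ly97.2 (19, 6.42 and 0.905 CPM), ifi44f4 (16.5, 13.2 and 2.69 CPM) and a further HBE1 copy at chr3:54843855-54844670 (805.9, 921.0 and 121.2 CPM). That copy overlaps a neighbouring globin gene, and hbaa1, in contrast, was highest in wild type 3. Another gene of the blood cell lists with a wide range was nt5c2l1 of the erythroid list, at 89.2, 282.9 and 419.4 CPM.

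The blood cell lists held 4 variable genes, of which LEF1 passed the minimum through wild type 3 alone: the HBE1 copy, nt5c2l1, a copy named MPEG1 at 1.83, 0.0481 and 2.01 CPM, and LEF1 at 0.402, 0.385 and 6.18 CPM. In the neutrophil, eosinophil and mast cell, progenitor, B cell, natural killer and thrombocyte lists 0 genes were variable, beside 3.53% of all genes. Each of these lists holds 7 to 21 genes with a mean of 1 CPM or more, so 0 lies near that share. Neither the count of 4 nor that of 0 is read as a trait of blood cell genes. The lists of other cell types, 328 genes at any level, held 81 of the 616 variable genes, which is 13.1%. Of all 17442 genes with a mean of 1 CPM or more, 3.53% were variable. The 13.1% is a share of the variable genes and the 3.53% a share of the 17442, so they cannot be compared. The 81 include egg coat and oocyte genes that passed the minimum only through a single library. That count is therefore not read as a trait of those cell types. Without the members of those lists 535 genes were variable. Of the variable genes 98 were in any list or class, so most stood outside all of them.

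At the other end, the 10 steadiest genes with a mean of 50 CPM or more differed by at most 1.01-fold. They were ppp1r18, a partner of protein phosphatase 1 (59.4, 59 and 59 CPM), ikbkg, the regulatory subunit of the kinase that activates NF-kB (67.4, 67.1 and 67.7 CPM), ZC3H4, PPP1CB, SH3GLB1, COQ8A, NUCB1, ZFAND3, USP8 and PLCL2. PPP1CB, a catalytic subunit of that phosphatase, was at 174.1, 173.2 and 175.0 CPM, and the deubiquitinase USP8 was at 211.0, 213.6 and 213.0 CPM. NUCB1 lies on a span that overlaps other genes, so its counts are less certain.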

How the data were processed

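RNA-seq of kidney marrow was used from the 3 libraries titled tet2 wt/wt. The deposited files hold raw counts per Ensembl gene and the gene's exon length. Per the submitters' processing notes, Trimmomatic 0.36, STAR 2.5.2b and the build GRCz10 were used. The sources used here name no counting tool, strand setting or treatment of reads with several matches, so genes that overlap or have near copies are uncertain. In a check for a library deposited more than once, no pair agreed within sampling noise (chi-square per degree of freedom of 51.9 to 102).

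The counts were scaled with TMM in edgeR 4.0.16 (R 4.3.3), and DESeq2 1.42.0 size factors were an alternative. Shares, exact binomial 95% intervals, computed TPM and ranges were obtained in Python 3.11.15 with scipy 1.17.1 and pandas 2.3.3. The script that counts variable genes was checked on simulated counts. Symbols were found for 25752 of 31484 IDs (81.8%). RefSeq, of another build, served for names and neighbouring genes only: names were checked by at least 3 shared genes among 10 on each side, and 789 of 879 names in 36 lists were matched.

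Named genes were the 25 highest by mean CPM, the 4 to 8 highest of each list, those with a descriptive symbol at 5 CPM or more that lay 4-fold above (up to 8) or below (up to 5) both other libraries, the 10 steadiest at 50 CPM or more and the tet genes. Other genes named were chosen after their values were seen. Classes by gene name leave out 4 genes caught by name alone, a choice made after seeing the data. Members and lists were chosen with earlier results of these data known. Some items withheld for evaluation are not reported here.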

Additional observations from a re-analysis of the deposited data

How the results depend on the processing

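The number of variable genes was 616. It was 345 with a pseudocount of 2 CPM and 295 with a mean of 5 CPM or more, where fewer genes and fewer low levels enter by construction. It stayed within 1.5 times of 616 with library totals (646), DESeq2 size factors (612), a pseudocount of 0.1 CPM (790), no filter (657) and, chosen after seeing the data, without the lists of other cell types (535). Leaving out 1 library gave 182 to 472, and the lowest was without wild type 3. A range over 2 libraries cannot exceed that over 3. The share of the first 100 genes was 28.9%, against 26.9% outside the mitochondrial chromosome and 44.4% by computed TPM, and 28.7% to 29.0% without 1 library. The number of genes at 1 CPM or more in all libraries was 15809 to 16634 under the alternatives. Of 45 class shares, 33 moved by more than the SD with computed TPM and 30 without their most abundant member. No paired analysis was possible because only 1 group was described. Levels near the floor of 3 counts are limited by depth.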

Other observations

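Genes of protein folding in the endoplasmic reticulum were higher in wild type 1. Of 18 measured genes of the unfolded protein response list, 14 were highest there under each of the 3 scalings, beside 30.1% to 44.0% of all genes. The chaperone HSPA5 was at 386.9, 161.4 and 198.6 CPM, and HSP90B1 was at 759.8, 247.3 and 275.5 CPM. PDIA4, which forms disulphide bonds, was at 273.0, 78.0 and 138.3 CPM, and calr3b was at 249.4, 101.6 and 56.3 CPM, a 4-fold range. Cell cycle genes held 0.400%, 0.316% and 0.317% of counts, and 23 of 34 were highest in wild type 1, beside 40.7% of all genes, or 19 with library totals alone, beside 30.1%. The replication clamp PCNA was at 484.2, 274.2 and 224.4 CPM.

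Clock genes differed individually. The repressor PER1 was at 41.6, 4.81 and 10.7 CPM, nfil3-6 was at 274.5, 119.9 and 74.9 CPM and nr1d2a was at 189.2, 87.4 and 78.6 CPM, all highest in wild type 1. The gene cry3a was at 235.1, 329.2 and 252.0 CPM and highest in wild type 2. The labels give no time of sampling. Of the MHC class II genes, mhc2daa was at 559.2, 486.1 and 308.9 CPM and mhc2dab at 302.1, 201.0 and 55.5 CPM, whereas cd74a and cd74b, described above, stayed close.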
